A study of Mus musculus with 5 samples.

Results

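The respiratory chain is the set of protein complexes in the inner mitochondrial membrane that passes electrons from nutrients to oxygen and uses the proton gradient so formed to make ATP. Complex I (NADH dehydrogenase) and complex II (succinate dehydrogenase) take up electrons, complex III (cytochrome bc1 complex) and complex IV (cytochrome c oxidase) pass them on, and complex V is the ATP synthase. Most subunits are encoded in the nucleus, on many chromosomes, and some complex IV subunits have a second form that is used mainly in muscle, lung or testis. Nuclear respiratory chain genes are known for promoters with sites of NRF1, of the ETS factor GABP and of the zinc finger protein YY1, and REX1 (Zfp42) is a relative of YY1 with a similar binding sequence.

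The genes described here are the nuclear-encoded respiratory chain genes, taken by symbol from the protein-coding genes of the GENCODE mouse annotation on chromosomes 1 to 19, X and Y: those that start with Ndufa, Ndufb, Ndufc, Ndufs, Ndufv, Uqcr, Atp5 or Cox4 to Cox8, and Sdha to Sdhd. This rule gave 94 gene records of 21938. They comprise 38 genes of complex I, 4 of complex II, 8 of complex III, 18 of complex IV, 18 of complex V and 8 complex I assembly factors whose symbols start with Ndufaf. This grouping is by symbol alone, so Ndufa4 and Ndufa4l2 are counted with complex I whatever the complex of their protein. Atp5o has 2 records, of which the second, ENSMUSG00000116933.1, holds a transcript with an incomplete start.

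The measurements are 3 lists of peaks from chromatin immunoprecipitation and sequencing (ChIP-seq) through a V5 tag in female mouse embryonic stem cells (mESCs) of mixed 129/Sv and Cast/Ei parentage. The REX1 list comes from WT mESCs with FLAG-V5-REX1. The RNF12 WT list comes from Rlim+/- mESCs with FLAG-V5-RNF12 WT, and the RNF12 H569A,C572A list from Rlim+/- mESCs with FLAG-V5-RNF12(H569A,C572A), a form of this E3 ubiquitin ligase without catalytic activity. Rlim is the gene of RNF12, so the RNF12 cells kept an endogenous allele, and the tagged RNF12 was expressed stably from a CAG promoter vector. The RNF12 cells were treated with the proteasome inhibitor MG132 (15 μM, 3 h) and cross-linked with 2 mM disuccinimidyl glutarate and 1% formaldehyde. The labels give a V5-tagged protein for REX1 too, but the study takes its REX1 binding data from previous work, and this difference was not reconciled. Each list stands for 1 library, so there are no replicates, no test between conditions is given, and intervals are 95% Wilson intervals that cover counting error only. The 2 control libraries were not analysed here.

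The REX1 list holds 96050 peaks, the RNF12 WT list 97602 and the RNF12 H569A,C572A list 98124, and values below are given in this order unless named. The depth of the libraries is unknown. A gene was counted as having a promoter peak where a summit lay within 1 kb of the transcription start site (TSS) of any of its transcripts. Its strongest promoter peak was placed by its percentile, the rank of its fold enrichment among all peaks of the same list, with 100 the strongest. A gene without a promoter peak counts as 0. Fold enrichments were not compared between lists, because which control stands behind each list is not settled here. A promoter counted as CpG-rich where the ratio of observed to expected CpG in the 300 bases around the principal TSS was 0.6 or more.

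Nearly all respiratory chain genes had a promoter peak in each list. For REX1, 87 of 94 had one (92.6%, interval 85.4% to 96.3%), against 66.9% of all protein-coding genes. For RNF12 WT it was 89 of 94 (94.7%, interval 88.1% to 97.7%), against 68.3%. For RNF12 H569A,C572A it was 87 of 94 (92.6%), against 67.2%. In all 3 lists together, 84 of the 94 genes had a promoter peak, against 60.2% of protein-coding genes, and 2 records had none in any list, against 25.7%.

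This high share was also that of other genes with CpG-rich promoters. Of the 94 genes, 67 (71.3%) had a CpG-rich promoter, against 46.8% of protein-coding genes. Of these 67 genes, 66, 67 and 66 had a promoter peak, and among all 10258 protein-coding genes with such promoters the shares were 95.8%, 96.5% and 97.7%. Among the 27 respiratory chain genes with CpG-poor promoters, 21, 22 and 21 had one (77.8%, 81.5% and 77.8%), against 41.5%, 43.6% and 40.4% of CpG-poor protein-coding genes. The intervals for the 27 genes ran from 59.2% to 89.4% in the REX1 and mutant lists and from 63.3% to 91.8% in the RNF12 WT list, above the values for CpG-poor genes in general. The ratio was measured at the principal TSS alone, whereas a promoter peak could lie at any TSS. In Atp5j2 (ratio 0.104), for example, the REX1 summit lay 3 bp from the nearest TSS and 554 bp from the principal one. CpG content at the peaks themselves was not measured.

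**Figure D1:**
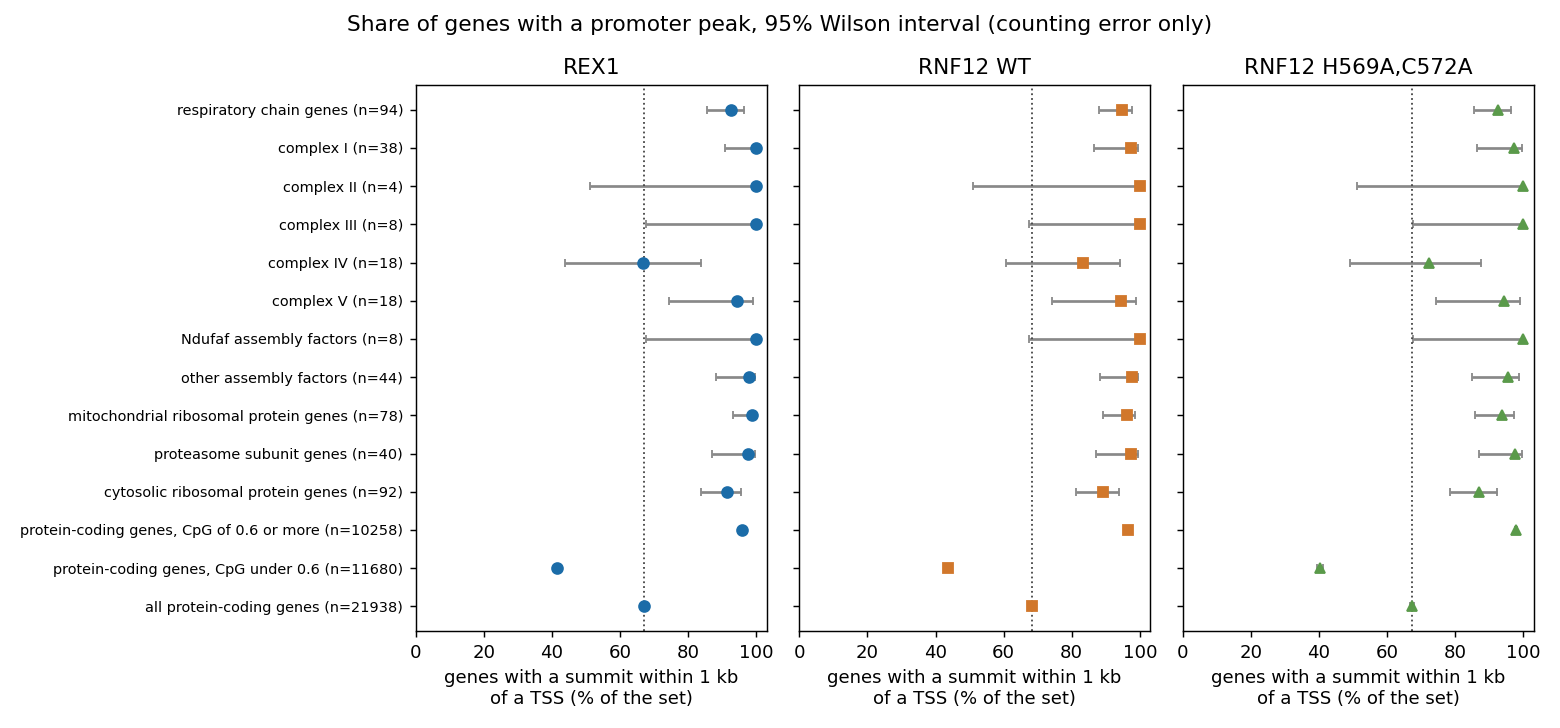
Share of genes with a promoter peak (x axis, percent of the set) for the respiratory chain genes, their complexes and comparison sets (y axis), with a panel for each list; bars are 95% Wilson intervals for counting error, and the dotted line is the share of all protein-coding genes. Complex IV sits at 66.7%, 83.3% and 72.2%, near the line in the REX1 and RNF12 H569A,C572A panels, while complex I sits at 100%, 97.4% and 97.4%.

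The strongest promoter peaks of these genes stood above the middle of each list. The median percentile over the 94 genes was 83.7 in the REX1 list, 80.5 in the RNF12 WT list and 77.0 in the RNF12 H569A,C572A list, against 53.9, 60.1 and 65.2 for all protein-coding genes. For the 67 genes with CpG-rich promoters the medians were 87.9, 83.7 and 78.4, against 79.6, 84.0 and 82.7 for CpG-rich protein-coding genes. Relative to CpG-rich genes in general, the median was thus higher in the REX1 list, close in the RNF12 WT list and lower in the mutant list. The peaks in the top 10% of each list showed the same order. For REX1, 35 genes (37.2%) had such a peak, against 18.7% of protein-coding genes. For RNF12 WT it was 34 genes (36.2%), against 23.3%. The RNF12 H569A,C572A list had 16 genes (17.0%), against 14.4%. With CpG-rich promoters alone, the shares were 44.8%, 37.3% and 20.9% of the respiratory chain genes and 30.1%, 37.5% and 25.9% of the protein-coding genes.

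**Figure D2:**
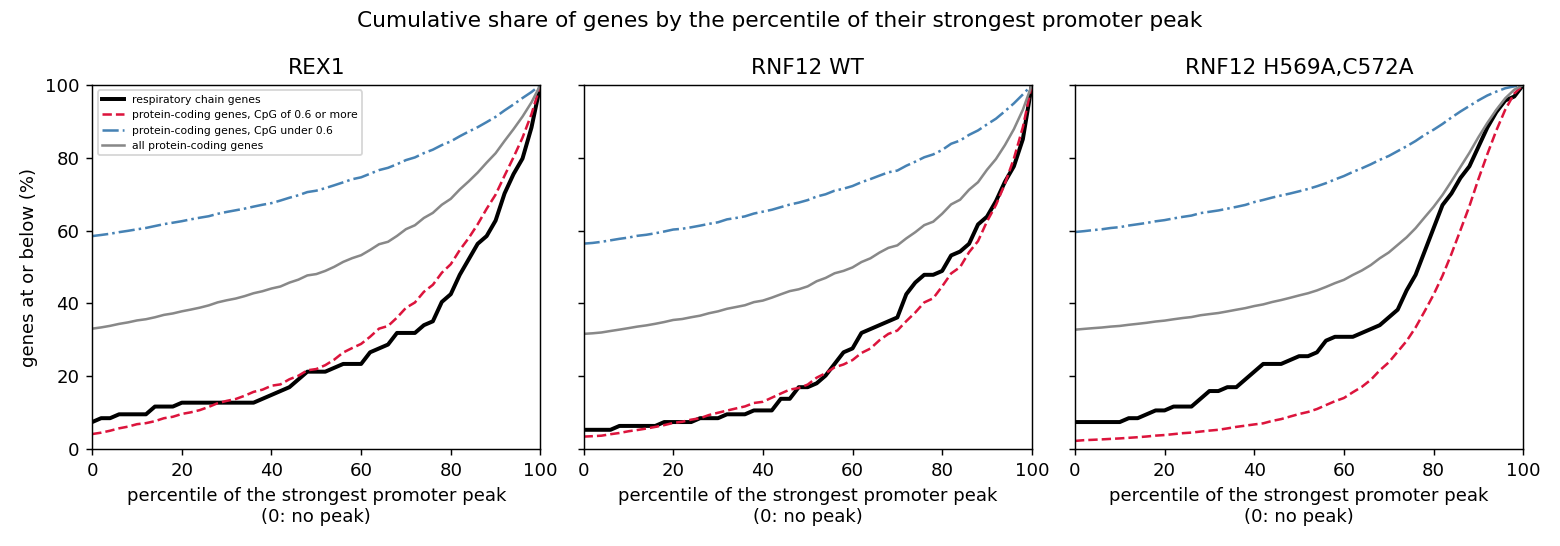
Cumulative share of genes (y axis, percent) whose strongest promoter peak lies at or below a percentile of its list (x axis, 0 for no peak), with a panel for each list. The line of the respiratory chain genes lies below that of CpG-rich protein-coding genes over the upper percentiles in the REX1 panel, near it in the RNF12 WT panel, and between it and the line of all genes in the RNF12 H569A,C572A panel, where 17.0% of the respiratory chain genes and 25.9% of the CpG-rich genes reach the top 10%.

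Cutting the lists by −log10 q gave a larger gap between them in the number of genes than the full lists did. Within the 20000 peaks of highest −log10 q of each list, 63, 59 and 31 of the 94 genes had a promoter peak. The shares were 67.0%, 62.8% and 33.0%, against 35.0%, 40.0% and 28.1% of all protein-coding genes and 55.5%, 63.5% and 49.2% of those with CpG-rich promoters. The 67 respiratory chain genes with CpG-rich promoters stood at 73.1%, 70.1% and 37.3%.

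Among the highest REX1 peaks were those of 2 complex I genes and 1 complex III gene whose summits lay on the start codon region. Ndufb5, a membrane arm subunit of complex I, had a REX1 fold enrichment of 19.02, rank 276 of the list. Uqcrc1, a core protein of complex III, had 16.87 (rank 446). Ndufs6, an accessory subunit of complex I, had 15.80 (rank 580). The same genes stood at percentiles 86.9, 95.8 and 95.9 in the RNF12 WT list and 93.9, 73.8 and 98.2 in the RNF12 H569A,C572A list. Ndufa2 followed with a REX1 fold enrichment of 15.01 (rank 697), at percentiles 42.6 and 72.7 in the RNF12 lists. For RNF12 WT the highest peaks were those of Ndufs4, an accessory complex I subunit, and Uqcrb, a complex III subunit, both with a fold enrichment of 14.12 and rank 34. They stood at percentiles 97.4 and 97.6 for REX1 and at 63.7 and 69.1 in the RNF12 H569A,C572A list.

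The 30 bases around a short string at the summits of 4 of these genes are shown, because the string coincides with the start of the protein. They are from the GRCm38.p6 genome, written in the sense of the gene. Capitals mark the exact match to AAGATGGC, a core of YY1 sites, in the first 3 and to ATGGCGGC, of the REX1 type, in Ndufb5. In all 4 the ATG within the capitals is an annotated start codon of the gene, in its first coding exon.
Uqcrc1 (chr9:108936705-108936734, plus strand): acggaagttagAAGATGGCggcgtccgcag
Ndufs6 (chr13:73328431-73328460, minus strand): gggtcaccggcAAGATGGCggcggtgctga
Ndufs4 (chr13:114388041-114388070, minus strand): ttgcctacaggAAGATGGCggcggtctcaa
Ndufb5 (chr3:32737071-32737100, plus strand): ccggtgtagccATGGCGGCcatgagcctgc

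The middle of the string lay 2, 5 and 28 bp from the REX1 summit in Uqcrc1, Ndufs6 and Ndufb5, and 21 bp from the RNF12 WT summit in Ndufs4. The start codons lay downstream of the principal TSS, the strings starting 83, 93, 199 and 92 bp after it in Uqcrc1, Ndufs6, Ndufs4 and Ndufb5. In Uqcrc1, Ndufs6 and Ndufs4 the bases after AAGATGGC are ggc, so that the strings AAGATGGC and ATGGCGGC overlap there.

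Across the 94 genes, AAGATGGC was found within 50 bp of the strongest promoter summit, on either strand, in 16 of 87 genes for REX1 (18.4%, interval 11.6% to 27.8%). The share over all protein-coding genes with a promoter peak was 4.80%. For RNF12 WT it was 11 of 89 genes (12.4%, interval 7.04% to 20.8%), against 1.81%. In the RNF12 H569A,C572A list it was 10 of 87 (11.5%, interval 6.36% to 19.9%), against 1.91%. Restricting the background to CpG-rich promoters gave 5.70%, 2.18% and 2.31%. In each list the lower end of the interval lay above both backgrounds. In the 300 bases from 250 before to 50 after the principal TSS, the string was present in 10.6% of the respiratory chain genes, in 3.14% of all protein-coding promoters and in 5.16% of CpG-rich ones. This window ends before the strings shown above for Uqcrc1, Ndufs6 and Ndufs4.

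The string lay at a start codon in most of these genes. It ran in the sense of the gene with its ATG as an annotated start codon in 10 of the 16 genes of the REX1 list, 8 of 11 of the RNF12 WT list and 7 of 10 of the RNF12 H569A,C572A list (62.5%, 72.7% and 70.0%). Among all protein-coding genes with the string at the summit the shares were 36.2%, 35.1% and 43.4%. Mitochondrial ribosomal protein genes had the string at a start codon in 8 of 11, 7 of 8 and 6 of 10 cases (72.7%, 87.5% and 60.0%), so this placement was shared with that set. In all, 20 respiratory chain genes had the string at a summit in at least 1 list, and 6 had it in all 3, among them Atp5h, Atp5j2, Ndufa9, Ndufs7 and Uqcrh. Ndufa9 (complex I) is an example in which the summits of all 3 lists lay within 4 bp of the first base of the string. In Uqcrh (the hinge protein of complex III) and Atp5h (subunit d of ATP synthase) the string ran on the opposite strand upstream of the principal TSS.

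The other strings were searched in the same windows, as exact matches on both strands. ATGGCTGC or ATGGCGGC, strings of the REX1 type, lay at 16.1%, 10.1% and 11.5% of summits, against 10.7%, 3.82% and 4.28% of all protein-coding genes with a promoter peak. GCGCANGCG, of the NRF1 type, was found at 11.5%, 7.87% and 14.9%, against 5.23%, 5.79% and 7.94%. CCGGAAG, of the ETS type, lay at 8.05%, 8.99% and 6.90%, against 5.37%, 6.50% and 6.12%. GGGCGGG, of the SP or KLF type, was found at 4.60%, 8.99% and 11.5%, against 9.84%, 13.4% and 21.9%. The REX1-type strings were above the background beyond the counting interval in the RNF12 lists (lower ends 5.41% and 6.36%) and not for REX1 (lower end 9.83%). The NRF1-type string was above it for REX1 (lower end 6.36%) and RNF12 H569A,C572A (lower end 8.95%), although for these lists the shares in CpG-rich genes were 6.52% and 9.86%. Only for RNF12 H569A,C572A did the interval of the SP or KLF string lie below the background, with an upper end of 19.9%. In all promoter windows of 300 bases, the REX1-type, NRF1-type, ETS-type and SP or KLF strings were present in 4.38%, 8.64%, 11.2% and 33.4% of protein-coding genes and in 9.57%, 17.0%, 18.1% and 28.7% of the respiratory chain genes. In CpG-rich protein-coding genes they were present in 6.83%, 16.6%, 19.6% and 55.6%, so that the NRF1-type and ETS-type shares of the respiratory chain genes were close to or below those of CpG-rich genes.

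**Figure D3:**
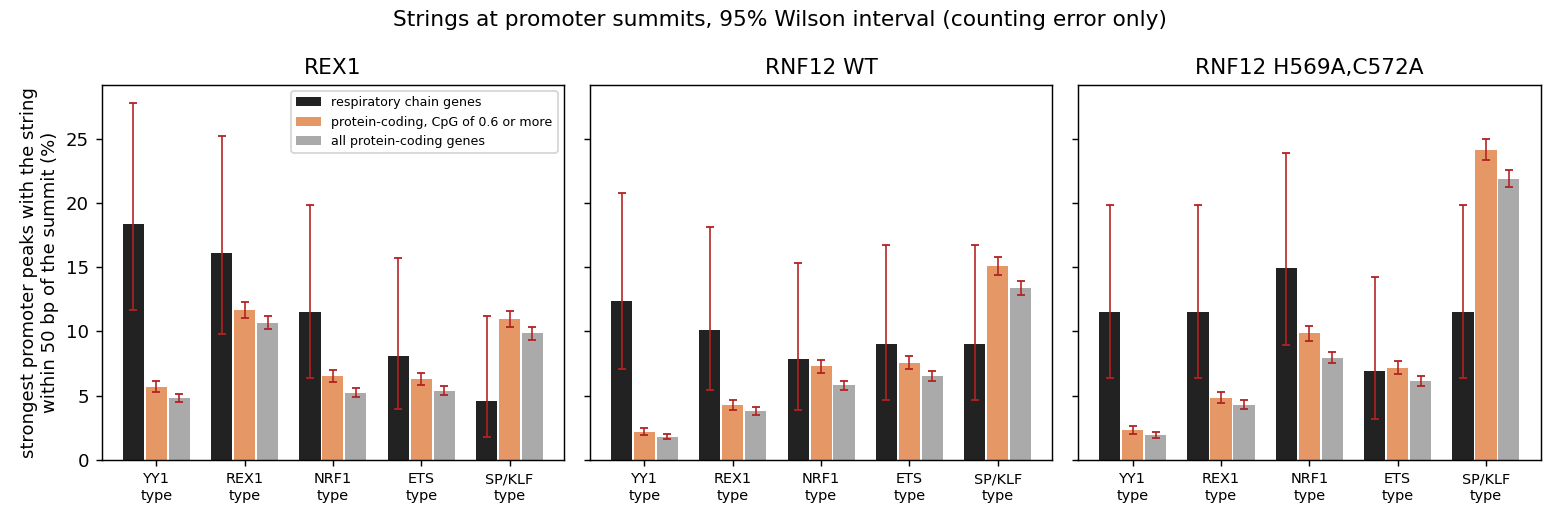
Share of strongest promoter peaks with each string within 50 bp of the summit (y axis, percent) in the respiratory chain genes (black), in protein-coding genes with a CpG ratio of 0.6 or more (orange) and in all protein-coding genes (grey), with a panel for each list and 95% Wilson intervals for counting error. The YY1-type string stands at 18.4%, 12.4% and 11.5% in the respiratory chain genes and at 4.80%, 1.81% and 1.91% in all genes.

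The summits sat close to the TSS. Relative to the nearest TSS, the strongest summit lay within 150 bp in 66 of 87, 65 of 89 and 67 of 87 genes (75.9%, 73.0% and 77.0%), against 55.9%, 53.7% and 63.5% of all protein-coding genes and 59.4%, 56.6% and 69.1% of CpG-rich ones. The median distance was 46, 56 and 65 bp, against 116, 133 and 97 bp. Relative to the principal TSS, 74.7%, 74.2% and 74.7% of the summits lay downstream, against 64.0%, 63.0% and 64.3% of all genes. Relative to the nearest TSS the shares downstream were 57.5%, 59.6% and 58.6%, against 56.8%, 56.1% and 57.1%, so the direction differed little from that of all genes there. The median position from the principal TSS was 79, 62 and 75 bp downstream. The median width of these peaks was 304, 269 and 315 bp.

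**Figure D4:**
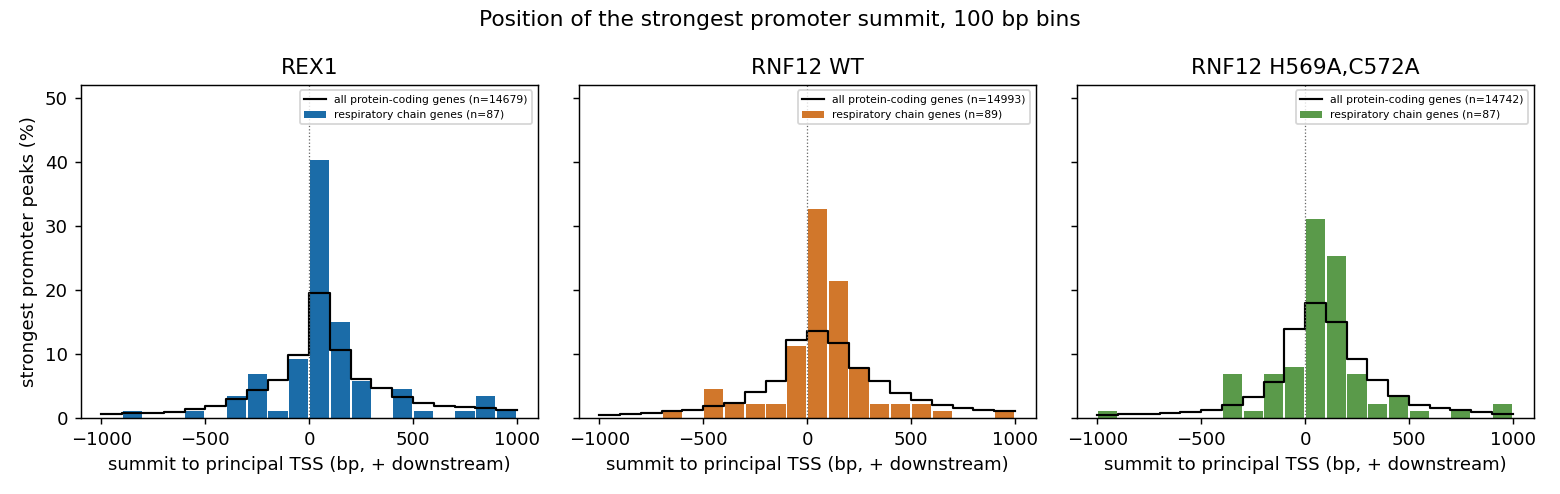
Position of the strongest promoter summit relative to the principal TSS (x axis, bp, positive downstream, 100 bp bins) as a share of the genes with a promoter peak (y axis, percent), for the respiratory chain genes (bars) and all protein-coding genes (line), with a panel for each list. The bin just after the TSS holds 40.2%, 32.6% and 31.0% of the respiratory chain genes and 19.6%, 13.5% and 17.9% of all genes.

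The strongest peaks of different lists overlapped in most respiratory chain genes. The strongest REX1 and RNF12 WT peaks overlapped by at least 1 bp in 64 of the 86 genes that had both (74.4%), against 56.1% of all protein-coding genes and 57.8% of CpG-rich ones. REX1 and RNF12 H569A,C572A overlapped in 68 of 84 genes (81.0%), against 69.4% and 72.1%. The 2 RNF12 lists overlapped in 71 of 85 genes (83.5%), against 72.2% and 74.6%. Summits lay within 100 bp of each other in 57.0%, 58.3% and 62.4% of the genes for these 3 pairs, against 34.9%, 37.1% and 40.6%. The order of the genes by percentile was less alike. Spearman's correlation across the genes with a peak in both lists was 0.23 between REX1 and RNF12 WT (86 genes), 0.20 between REX1 and RNF12 H569A,C572A (84 genes) and 0.41 between the RNF12 lists (85 genes), close to 0.23, 0.25 and 0.35 over all protein-coding genes. Genes are not independent replicates, and these are descriptions.

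**Figure D5:**
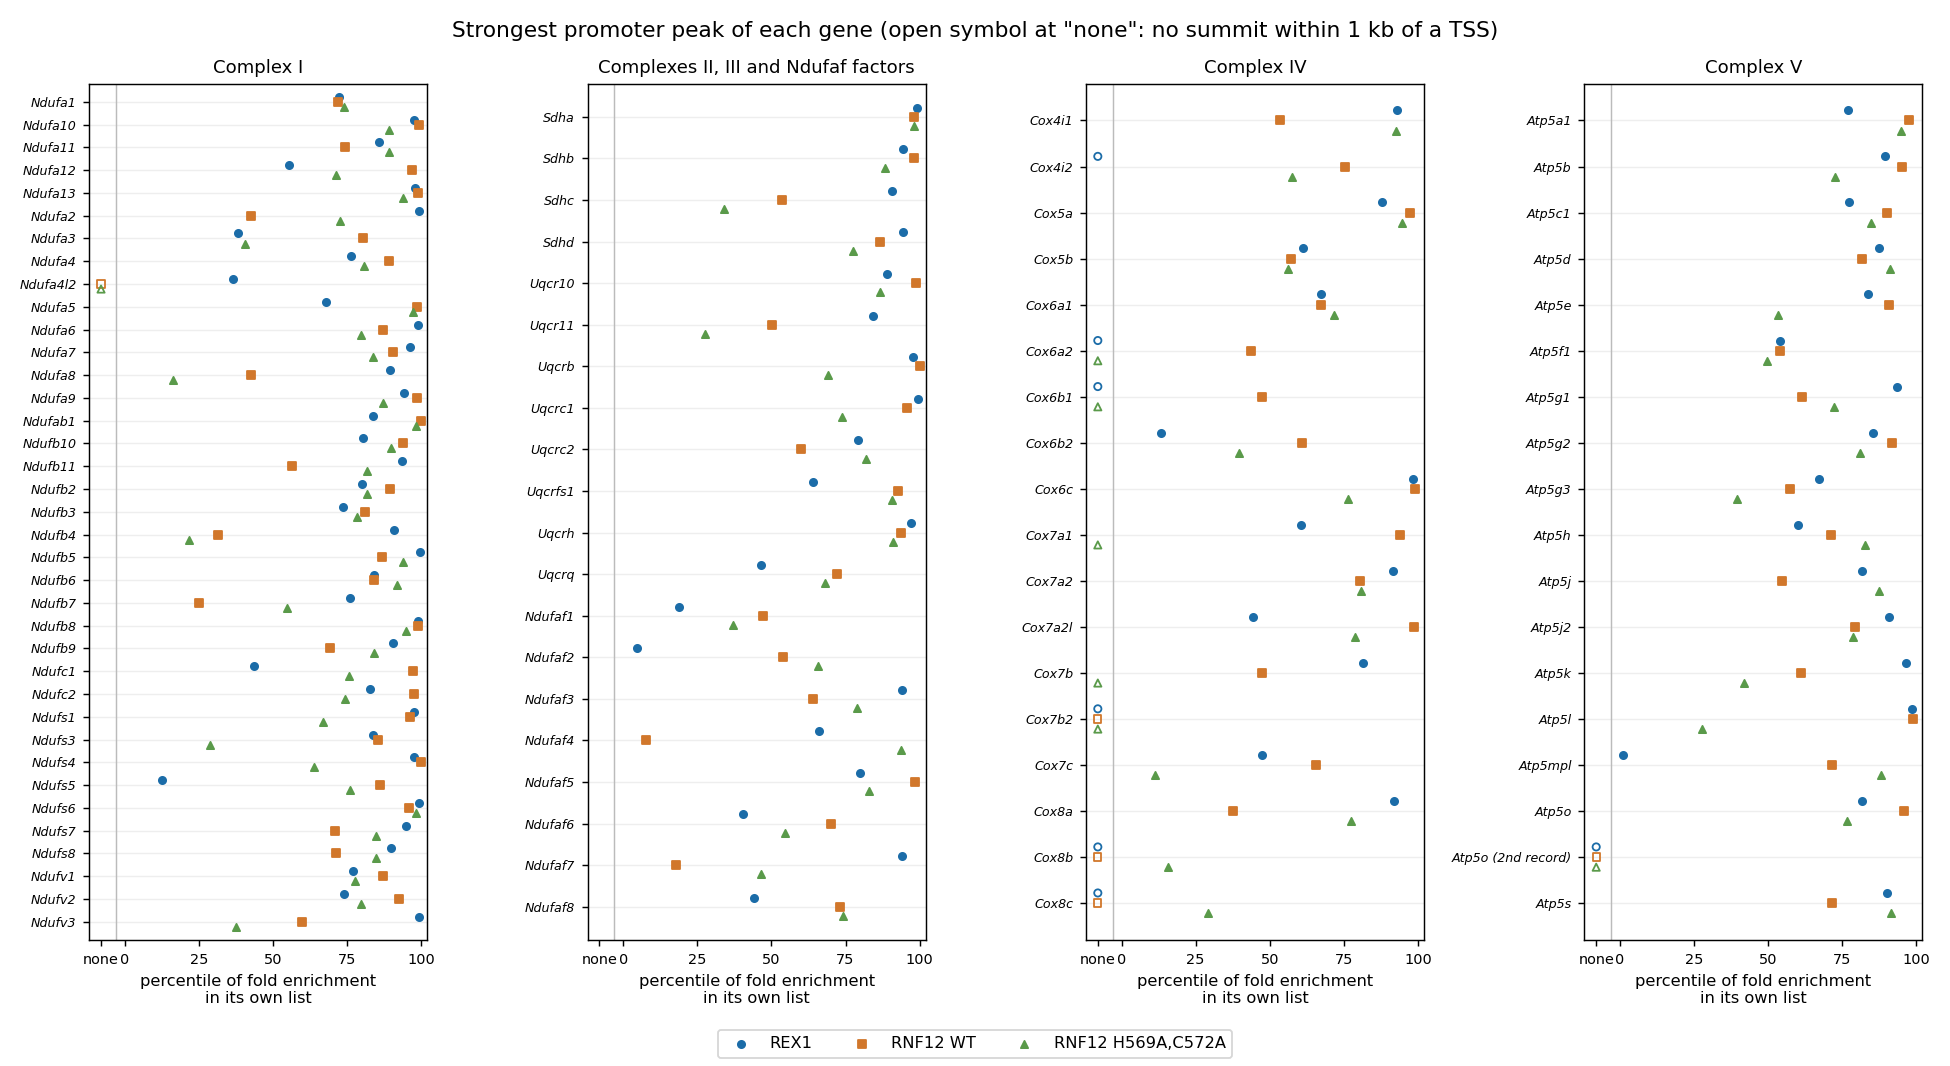
Percentile of the strongest promoter peak of the respiratory chain genes (x axis, percentile of fold enrichment within its own list; y axis, gene), with REX1 as circles, RNF12 WT as squares and RNF12 H569A,C572A as triangles; an open symbol at "none" marks a gene without a summit within 1 kb. Open symbols fall on 8 of the 18 complex IV genes and on Ndufa4l2 and the second Atp5o record, and Sdha stands at 99.1, 98.1 and 98.2.

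All 38 genes grouped by symbol as complex I had a REX1 promoter peak, and all but Ndufa4l2 had one in both RNF12 lists. Their median percentiles were 87.5, 86.9 and 79.6. For RNF12 WT the highest after Ndufs4 was Ndufab1, the mitochondrial acyl carrier protein, with a fold enrichment of 12.44 and rank 100. It was the highest respiratory chain gene for RNF12 H569A,C572A too (fold enrichment 26.30, rank 1656), and stood at percentile 83.7 for REX1. Ndufa10 stood at percentiles 97.4, 99.2 and 89.1, Ndufa5 at 67.7, 98.5 and 97.1, and Ndufb8 at 98.9, 98.9 and 94.9, all 3 accessory subunits. Other complex I genes differed widely between the lists: Ndufs5 stood at 12.6 for REX1 and 86.0 and 75.9 in the RNF12 lists, and Ndufv3 at 99.3 for REX1 and 59.6 and 37.6 in the RNF12 lists. These 2 were chosen after their values were seen.

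Ndufa4l2, a paralogue of Ndufa4 known for induction by hypoxia, had only a REX1 summit within 1 kb, 864 bp from a TSS, with a fold enrichment of 4.10. The nearest RNF12 summits lay 1821 bp (WT) and 1844 bp (H569A,C572A) away. Its promoter was CpG-poor (ratio 0.21), and the absence of RNF12 promoter peaks depends on the limit of 1 kb.

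All 4 complex II genes had promoter peaks in all lists, with median percentiles of 94.3, 92.2 and 83.0. Sdha, the flavoprotein that oxidises succinate, stood at 99.1, 98.1 and 98.2. Sdhb, the iron-sulphur subunit, stood at 94.4, 98.0 and 88.4. Its CpG ratio at the principal TSS was 0.36. The summits lay 215, 152 and 136 bp downstream of that TSS, outside the bases in which the ratio was measured. The membrane anchors Sdhc and Sdhd stood at 90.5 and 94.3 for REX1, at 53.5 and 86.5 in the RNF12 WT list and at 33.9 and 77.5 in the RNF12 H569A,C572A list. For REX1 all 4 lay in the top 10% of the list.

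All 8 complex III genes had promoter peaks in all lists, with median percentiles of 86.5, 93.2 and 77.9. For RNF12 WT, 5 of the 8 lay in the top 10%, and for REX1 and RNF12 H569A,C572A 3 and 2 did. Uqcrh stood at 97.1, 93.9 and 91.2. Only 5 respiratory chain genes reached the top 10% in all 3 lists, namely Ndufa13, Ndufb8, Ndufs6, Sdha and Uqcrh (5.32%, against 3.87% of all protein-coding genes and 7.02% of CpG-rich ones). The Ndufa13 summits lay 869, 928 and 921 bp downstream of its TSS and within 1 kb of a Tssk6 TSS. A REX1 summit 32 bp from the Ndufa13 TSS had a fold enrichment of 3.82. The Uqcrh summits also lay within 1 kb of a TSS of Lrrc41.

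Complex IV held most of the exceptions. Of its 18 genes, 12, 15 and 13 had a promoter peak (66.7%, 83.3% and 72.2%), against 66.9%, 68.3% and 67.2% of all protein-coding genes, and 10 had one in all 3 lists. The exceptions were mostly tissue forms. For subunit 4, the widely used Cox4i1 stood at percentiles 92.8, 53.5 and 92.6. Its REX1 value came from a summit 736 bp upstream of one TSS but 3632 bp downstream of the principal TSS. Its RNF12 summits lay 465 and 181 bp upstream of the principal TSS. Cox4i2, the lung form, had no REX1 promoter peak (nearest summit 9327 bp away) and stood at 75.3 and 57.6 in the RNF12 lists. For subunit 6a, Cox6a1 stood at 67.3, 67.1 and 71.8, and Cox6a2, the heart and muscle form, had a peak for RNF12 WT alone, 603 bp from a TSS, at 43.5. For subunit 7a, Cox7a2 stood at 91.6, 80.5 and 80.9. Its heart and muscle form Cox7a1 stood at 60.6 and 93.8 for REX1 and RNF12 WT and had no RNF12 H569A,C572A summit within 6154 bp.

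For subunit 8, Cox8a stood at 91.9, 37.8 and 77.4. The muscle form Cox8b and the testis form Cox8c had a promoter peak for RNF12 H569A,C572A alone, at percentiles 15.8 and 29.3. The nearest summits to Cox8b lay 2565 bp (REX1) and 2842 bp (RNF12 WT) away, and those to Cox8c 20917 bp and 20819 bp away. Cox7b2, the testis form of subunit 7b, had no promoter peak in any list, with the nearest summits 7790, 8126 and 8141 bp from a TSS. The promoters of Cox4i2, Cox6a2, Cox7a1, Cox7b2, Cox8b and Cox8c were all CpG-poor, with ratios from 0.115 in Cox8b to 0.564 in Cox7b2. Of the tissue forms, Cox6b2 of the testis alone had a promoter peak in all lists, at 13.4, 60.8 and 39.8.

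For subunit 6b the order was the other way round. Cox6b1, the widely used form of subunit 6b, was the only respiratory chain gene with a CpG-rich promoter (ratio 0.71) that lacked a promoter peak in at least 1 list. It had one for RNF12 WT, at percentile 47.2 with a fold enrichment of 4.54, and the nearest summits lay 7809 bp away for REX1 and 2263 bp for RNF12 H569A,C572A. Its gene lies at chr7:30616861-30626151 on the minus strand. Cox7b, the widely used form of subunit 7b, also lacked a promoter peak in 1 list. It stood at 81.3 for REX1 and 47.2 for RNF12 WT and had no RNF12 H569A,C572A summit within 3896 bp. Of the rest of complex IV, Cox6c had the highest percentiles for REX1 and RNF12 WT, 98.3 and 98.9, and stood at 76.4 in the mutant list.

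In complex V, 17 of 18 records had a promoter peak in all lists, with median percentiles of 82.6, 75.3 and 77.6 over the 18. The exception was the second Atp5o record, whose usual record stood at 81.5, 95.8 and 76.6. Atp5l, subunit g of the synthase, stood at 98.4 and 98.9 for REX1 and RNF12 WT and at 27.6 in the mutant list. Atp5mpl, a small membrane subunit chosen after its values were seen, had the lowest REX1 percentile, 1.06, among the 87 genes with a REX1 promoter peak, and stood at 71.4 and 88.2 in the RNF12 lists. Its REX1 fold enrichment was 2.41.

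The 8 Ndufaf assembly factors, which help to build complex I and are not part of it, had promoter peaks in all lists but lower in them, with median percentiles of 55.1, 59.0 and 69.9. The other 44 assembly factors and electron carriers examined had promoter peaks in 43, 43 and 42 cases, with medians of 87.3, 91.8 and 77.3. Sdhaf1, a factor of complex II assembly, had none in any list. Of 16 regulators of mitochondrial genes, 14, 15 and 15 had a promoter peak. Nrf1 stood at 99.5, 66.6 and 94.1, Tfam, the factor that packages and transcribes mitochondrial DNA, at 96.2, 89.3 and 92.1, and Yy1 at 4.45, 29.0 and 92.6. Ppargc1a, the coactivator of mitochondrial biogenesis, had no promoter peak in any list.

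The X chromosome carries 3 of the genes, of which 3, 3 and 2 had a promoter peak. The shares of all protein-coding genes there were 50.9%, 53.1% and 51.1%. Ndufa1 stood at 72.3, 72.1 and 73.8 and Ndufb11 at 93.5, 56.5 and 81.6, both subunits of complex I, and Cox7b had no promoter peak for RNF12 H569A,C572A, as above. The RNF12 WT list holds fewer peaks on chromosome 12 (2289) than the REX1 list (5892) and the RNF12 H569A,C572A list (4303). Of the 3 respiratory chain genes there, 2, 2 and 3 had a promoter peak, and of all protein-coding genes on that chromosome 81.5%, 67.0% and 81.2%. With 3 genes, the members cannot be told from this background. The RNF12 WT list also holds fewer peaks on chromosome 10 (3070) than the REX1 list (4554) and the mutant list (4672). Of the 6 respiratory chain genes there, 6, 5 and 5 had a promoter peak, against 70.2%, 66.7% and 72.3% of all protein-coding genes on it.

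Many of these genes start near another gene. By annotation, 37 of the 94 genes (39.4%) had a TSS within 1 kb of a TSS of another protein-coding gene, against 14.5% of all protein-coding genes and 22.4% of CpG-rich ones, and no 2 respiratory chain genes were neighbours in this sense. Partners included Gabpa, which encodes the DNA-binding subunit of GABP, beside Atp5j (a peripheral stalk subunit of ATP synthase). The percentiles of this pair, 81.5, 54.6 and 87.2, are those of the same peaks. Ndufs6 and Ndufb5, described above, shared their promoters with the mitochondrial ribosomal protein genes Mrpl36 and Mrpl47. Sdha shared its own with Ccdc127, Sdhd with Timm8b and Ndufa7 with Rps28. To which gene of a pair a peak belongs cannot be told from its position. All 37 genes with a neighbour had a promoter peak in each list, against 91.3%, 91.6% and 90.9% of all protein-coding genes with a neighbour. Among the 57 genes without a neighbour, 50, 52 and 50 had a promoter peak (87.7%, 91.2% and 87.7%), against 62.8%, 64.4% and 63.2% of all protein-coding genes without one. With CpG-rich promoters alone, the shares without a neighbour were 97.1%, 100% and 97.1% of 34 respiratory chain genes and 95.3%, 96.1% and 97.5% of 7959 protein-coding genes.

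Mitochondrial ribosomal protein genes, which serve the same organelle, were taken as a set for comparison. Of 78 such genes, 77, 75 and 73 had a promoter peak, with median percentiles of 89.7, 87.6 and 82.5, against 83.7, 80.5 and 77.0 in the respiratory chain genes. The YY1-type string lay at 14.3%, 10.7% and 13.7% of their summits, within the intervals of the respiratory chain genes. The REX1-type strings lay at 39.0%, 22.7% and 20.5% of their summits, with intervals from 28.8% to 50.1%, from 14.7% to 33.3% and from 12.9% to 31.2%, against 16.1%, 10.1% and 11.5% in the respiratory chain genes. For REX1 this interval did not overlap that of the respiratory chain genes, 9.83% to 25.2%.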

How the data were processed

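The files are 3 MACS2 narrow peak lists, 1 library each. Per the study's methods, the authors trimmed reads (Trim Galore 0.6.7), aligned them with Bowtie2 2.5.0 to mm10 masked at strain differences, sorted them by allele, merged them with SAMtools 1.10 and called peaks with MACS2 2.2.7.1 at default settings. The deposited values per peak are a fold enrichment (a ratio to control), −log10 p-value and −log10 q-value, plus a score left unused here. The authors' lists give no read totals.

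Summits were joined to TSSs of all transcripts of GENCODE M21 and sequence to GRCm38, in Python 3.11.15 with numpy 2.4.6 and pandas 2.3.3. The joining was tested on simulated data, in which 1500 of 1500 planted genes were found among 21938. Strings were exact matches. The members and lists were chosen with earlier results of these data known. Named are genes without a promoter peak in at least 1 list, the 5 highest per list, X-linked genes, complex IV isoform pairs, complex II, related genes without any promoter peak, and Nrf1, Gabpa, Yy1 and Tfam. Others are examples, chosen after their values were seen. 1 gene of the set is in the counts but is not reported here by name or in the plot of genes. Alternatives changed the threshold, distance, TSSs, peak position, ranking value and members.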

Additional observations from a re-analysis of the deposited data

How the results depend on the processing

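The counts and median percentiles kept their values within 1.5 times (counts) or within the counting error of the median at −log10 q of at least 2 or 5, at 500 bp or 3 kb, with 1 TSS per gene or protein-coding transcripts alone, with any base of a peak near a TSS, and without the Ndufaf genes. The exceptions follow. Within the 20000 peaks of highest −log10 q, where fewer peaks enter by construction, 59 genes had a promoter peak for RNF12 WT, 31 for RNF12 H569A,C572A and 24 in all 3 lists. Each list was cut to the same number of peaks, and why the count of the mutant list fell furthest was not tested. The RNF12 H569A,C572A median was 0 there, since 31 of 94 genes had a promoter peak and the others count as 0, while the REX1 and RNF12 WT medians were 83.2 and 76.7. Ranked by −log10 q, the RNF12 WT median was 87.9, and the cause was not tested. Without genes that have a TSS within 1 kb of a TSS of another gene, an alternative chosen after seeing the data, the counts were 50 (REX1), 52 (RNF12 WT), 50 (RNF12 H569A,C572A) and 47 (all 3 lists) of 57 genes, since fewer genes enter. No paired analysis was possible because each group has 1 library and no test was made. Unknown depth limits what the absence of a promoter peak can show.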

Other observations

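Summits inside the genes, more than 1 kb from any of their TSSs, were seen in 26, 23 and 25 of the 94 respiratory chain genes for REX1, for RNF12 WT and for the RNF12 mutant (27.7%, 24.5% and 26.6%). The shares over all protein-coding genes were 45.0%, 47.7% and 45.9%, and gene length was not matched. Among the respiratory chain genes, the long second Atp5o record, which spans other loci, held 19, 29 and 10 of the 61, 67 and 46 such summits, and the assembly factor Ndufaf2 held 5, 4 and 8.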
